A study of Arabidopsis thaliana with 36 samples.

Results

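The genes described here are the expressed noncoding RNA genes of Arabidopsis thaliana seedlings. They are the rows of the deposited gene count table whose gene type is not protein_coding, rRNA or tRNA, that lie outside the chloroplast and mitochondrial genomes, and that reached a mean of at least 2 CPM (counts per 1000000 counts of the library) in at least 1 of the 12 combinations of genotype and time. They were thus chosen by their measured level in these same libraries. Of 4499 eligible noncoding rows, 246 met the level, out of 32833 rows in all, and 1954 of the eligible rows held any count. The 246 comprised 159 of 3481 long noncoding RNA (lncRNA) genes, 66 of 299 genes typed ncRNA, 17 of 25 typed nontranslating_CDS, 2 of 325 microRNA (miRNA) genes, 1 of 82 small nuclear RNA genes and 1 of 287 small nucleolar RNA genes. At the same level, 18034 of 27420 nuclear protein-coding genes would have been taken. That they are expressed is therefore not a result.

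RNA was sequenced from whole seedlings 7 days old, grown at 22 °C in continuous white light with a red to far-red ratio of 1.58. Samples were taken at 0 h in white light, and after 1 h or 8 h with far-red light added (W+FR, a simulation of vegetation shade), which brought the ratio to 0.02. The 4 genotypes were the wild type Col-0 (WT), the hy5 mutant, the pif4 pif5 pif7 triple mutant (pif457) and the hy5 pif4 pif5 pif7 quadruple mutant (hy5 pif457), with 3 libraries per genotype and time, 36 in all. No white-light sample at 1 h or 8 h is among the groups, so added far-red light cannot be told apart from elapsed time. The sources used here do not give the mutant alleles. HY5, a transcription factor of the bZIP class, promotes seedling development in light, and PIF4, PIF5 and PIF7 are bHLH transcription factors that drive elongation in shade. The labels call the libraries biological replicas. In bulk RNA of whole seedlings, fewer cells of a type and less RNA per cell cannot be told apart.

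Noncoding genes make RNA that is not translated into a known protein. Antisense lncRNAs are transcribed from the strand opposite a coding gene. TAS genes make long transcripts that a miRNA cuts, after which they are copied into double strands and diced into trans-acting siRNAs that silence other genes. A miRNA gene makes a hairpin transcript from which the mature miRNA is cut. Bases 2 to 8 of the mature miRNA are called its seed. The library kit was made for mRNA, so what was counted for miRNA, small nuclear and small nucleolar RNA genes is longer or polyadenylated RNA, not the mature small RNA.

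Of the 2 miRNA genes, MIR163 lies on chr1:24884066-24884396, plus strand, and MIR2936 on chr4:1046804-1046983, minus strand; all coordinates and sequences here come from RefSeq's annotation of TAIR10.1. Their mature sequences are printed with the seed in capitals, next to those of miR173 and miR390, which cut the TAS transcripts. The 4 seeds are all different.

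ath-miR163: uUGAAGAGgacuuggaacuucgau
ath-miR2936: cUUGAGAGagagaacacagacg
ath-miR173-5p: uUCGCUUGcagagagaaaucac
ath-miR390a-5p: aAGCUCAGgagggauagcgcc

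The 5 TAS genes were searched for the stretch that pairs best with the miRNA known to cut them, since 4 of them share that miRNA. Bases that form Watson-Crick pairs with the miRNA are in capitals.

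TAS1A ath-miR173-5p site: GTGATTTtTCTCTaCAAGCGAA
TAS1B ath-miR173-5p site: GTGATTTtTCTCaaCAAGCGAA
TAS1C ath-miR173-5p site: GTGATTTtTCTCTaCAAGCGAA
TAS2 ath-miR173-5p site: GTGATTTtTCTCTcCAAGCGAA
TAS3 ath-miR390a-5p site: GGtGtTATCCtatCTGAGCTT

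TAS1A, TAS1C and TAS2 paired at 20 of 22 bases and TAS1B at 19, each with 1 G-U wobble more. TAS3 paired with miR390 at 16 of 21 bases, with 4 wobble pairs and 1 mismatch in the middle of the site.

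The lncRNA gene AT5G02865, whose level varied most among the 246, lies on chr5:5967101-5967987, minus strand. It is a gene of 887 bases with 1 exon, between the genes of the auxin-responsive growth proteins SAUR20 (same strand, 315 bases away) and SAUR21 (AT5G18030, opposite strand, 364 bases from start to start). The window from 250 bases before to 50 bases after its annotated start, chr5:5967938-5968237 on the minus strand, is printed because its level moved with those neighbours; capitals mark the motif CACATG.

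AT5G02865 promoter: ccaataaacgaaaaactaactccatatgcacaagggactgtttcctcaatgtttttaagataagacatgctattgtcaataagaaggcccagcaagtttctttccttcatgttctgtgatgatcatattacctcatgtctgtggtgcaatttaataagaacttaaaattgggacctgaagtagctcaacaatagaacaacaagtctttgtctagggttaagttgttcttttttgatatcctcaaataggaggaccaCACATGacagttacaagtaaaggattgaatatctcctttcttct

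CACGTG, the G-box bound by HY5 and the PIFs, and CACATG on either strand, a variant of it, were searched in the same 300-base window of every annotated gene. The window of AT5G02865 held 1 CACATG, which began at base 7 of the annotated transcript, and no CACGTG. Among the 246 genes, 13 windows (5.285%) held CACGTG and 22 (8.943%) CACATG. Over 27443 protein-coding genes the shares were 7.678% and 12.914%, and over all 37897 annotated genes 6.462% and 12.893%. The motif letters describe these windows and say nothing of binding.

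By position, 160 of the 246 overlapped an exon of a coding gene on the opposite strand, 82 overlapped no coding gene, 3 overlapped a coding exon on the same strand and 1 lay in a coding gene without touching an exon. Their exons summed to 162 to 7250 bases, with a median of 1660, and 130 had more than 1 exon block. The strand setting of the counting is not stated in those sources, so reads of an antisense gene and of its coding partner cannot be told apart. For the 159 pairs whose partner had counts, the noncoding gene had more counts than its partner in 82 and fewer in 77. In 18 pairs it had under 5% of the partner's counts and in 5 under 1%. RefSeq lists all 17 nontranslating_CDS genes as protein_coding, among them RR2, MKP1 and ELF8. Of the 246, 18 shared at least 10% of their 50-base words with another annotated gene, and their counts are uncertain.

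Per kilobase of exon, the highest mean levels over the 36 libraries were 214.2 CPM per kb for AT3G06355, a lncRNA on chr3:14199575-14200076 inside a ribosomal DNA repeat, 141.0 for AT4G13495 and 139.8 for AT2G08665. AT1G25098 had 80.5 CPM per kb, AT3G22121 76.6, AT3G12965 60.4, GUT15 53.3 and AT1G10682 46.6. AT3G06355 shared 25.4% of its 50-base words with the rRNA gene AT2G01020, and AT1G25098 shared 99.5% with AT1G25175. From here on, except where stated, levels are CPM scaled by edgeR's trimmed mean of M-values (TMM). Differences are log2 fold changes with their standard error.

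The level of 2 CPM was set before TMM scaling, as are the values set against it in this paragraph. Just inside it were AT2G23040 at 2.012, AT1G58590 at 2.017 and AT5G42092 at 2.019 in their highest groups, and just outside were AT1G67105 at 1.952, AT1G16489 at 1.940 and AT4G27852 at 1.934. Of 20 well-studied noncoding RNAs looked up by locus, 7 were among the 246, namely TAS1A, TAS1B, TAS1C, TAS2, TAS3, AT1G69572 and GUT15. Of the rest, IPS1, AT4, AT2G34655 and both 7SL RNAs are typed protein_coding in the table. All 246 passed the low-count filter, 204 had a mean over all libraries of at least 2 CPM, and 165 reached 2 CPM in all 12 groups.

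Library totals ran from 30846115 to 58025421 counts. Ribosomal RNA genes took 0.467% to 2.63% of the counts in 24 libraries and 6.01% to 11.6% in the other 12, which were pif457 at 8 h and hy5 pif457 at all times, so those groups differ in rRNA share as well as in genotype or time. HY5 read 3.44 to 6.03 CPM in the hy5 and hy5 pif457 libraries and 9.49 to 26.1 in the others. PIF5 (PIL6 in RefSeq) read 1.35 to 4.69 against 26.3 to 118, and PIF7 1.22 to 3.43 against 7.02 to 34.6. PIF4 read 11.5 to 53.8 in the lines that carry pif4 against 13.8 to 108 in the others, so its level does not check those labels. All 14 root markers and all 5 shoot markers looked at were above 0 in every library. Before TMM scaling, the summed root markers ran from 1224 ± 517 CPM (SD, n = 3) in WT at 8 h to 2947 ± 414 in hy5 at 1 h. Most of this sum was 1 gene, PYK10, which averaged 1131 and 2637 CPM in those groups.

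Most of the 246 genes varied little over the groups. The highest group mean was a median of 1.68 times the lowest, 195 genes stayed under 2-fold, 51 reached 2-fold, 12 reached 4-fold and 5 reached 10-fold. AT5G02865 had by far the widest range, 118-fold, followed by AT4G04223 at 13.1-fold, AT3G27884 at 12.7-fold, RLK1 at 11.1-fold and AT1G07367 at 10-fold. The highest group was hy5 pif457 at 8 h for 137 of the 246 and WT at 0 h for 31, while every other group was highest for 2 to 16. The choice of the 246 by their highest group mean can raise such counts, and the same count over all genes was not made.

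Responses to W+FR were tested with edgeR's quasi-likelihood test over 21562 genes, and a gene is called at a Benjamini-Hochberg adjusted p under 0.05. In WT at 1 h, 8 of the 246 were called, 3 higher and 5 lower, against a background of 5.2% of all genes tested (3.56% higher, 1.64% lower). With WT 0 h replicate 1, 2 or 3 left out this count was 3, 19 or 2, and with WT 1 h replicate 1 left out it was 5. In WT at 8 h, 36 were called, 16 higher and 20 lower, against a background of 19.2% (12% higher, 7.11% lower). Its leave-one-out counts that moved by over 1.5 times were 16 and 22 (WT 0 h replicates 1 and 3) and 19 (WT 8 h replicate 3). The median log2 change of the 246 in WT at 8 h was -0.13, next to -0.03 over all genes tested. Between 1 h and 8 h in WT, 15 were called against a background of 8.16%, and 9, 8 or 7 without WT 1 h replicate 1, WT 8 h replicate 1 or WT 8 h replicate 3.

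In hy5, 10 genes were called at 1 h (7 higher, 3 lower, with a background of 6.77%, 3.62% higher and 3.15% lower) and 20 at 8 h (15 higher, 5 lower, with a background of 9.27%, 4.52% higher and 4.75% lower). The 1 h count was 5 without hy5 0 h replicate 1 and 6 without hy5 1 h replicate 1, and the 8 h count was 10 without hy5 0 h replicate 3 and 9 without hy5 8 h replicate 1. Between 1 h and 8 h in hy5, 10 were called against a background of 7.17%, and 4, 6 or 4 without hy5 1 h replicate 3, hy5 8 h replicate 1 or hy5 8 h replicate 3. None of the 246 was called for a difference between the hy5 and WT responses at 1 h, where the background was 0% and 23 had an unadjusted p under 0.05. At 8 h none was called either, with a background of 1.53%, 31 at an unadjusted p under 0.05 and 3 by DESeq2, against 0 by DESeq2 at 1 h. The 8 h count became 2 without hy5 0 h replicate 3 or without hy5 8 h replicate 2.

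In pif457 at 1 h, edgeR's test and DESeq2 called 0 of the 246, where the background was 0.227% and 14 had an unadjusted p under 0.05. At 8 h in pif457, 20 were called, 3 higher and 17 lower, against a background of 9.94% (5.36% higher, 4.58% lower). This count was 5 without pif457 0 h replicate 2, 13 without pif457 0 h replicate 3, and 35, 11 or 4 without pif457 8 h replicate 1, 2 or 3. The pif457 and WT responses differed for 1 gene at 1 h (background 0.872%), a count of 0 without pif457 0 h replicate 1, and for 3 genes at 8 h (background 2.92%), a count of 6 without pif457 0 h replicate 3 and 11 without pif457 8 h replicate 1.

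In hy5 pif457 at 1 h, only AT2G45315 was called, against a background of 0.181%, and leaving out any of the 6 libraries ended that call. At 8 h, 56 of the 246 were called, 52 higher and 4 lower, where the background was 10.9% in either direction, 4.73% higher and 6.2% lower. The count was 34 or 23 without hy5 pif457 0 h replicate 2 or 3 and 18 or 20 without hy5 pif457 8 h replicate 1 or 3. The hy5 pif457 and WT responses differed for 2 genes at 1 h (background 0.969%) and for 49 at 8 h, 45 of them higher in hy5 pif457 and 4 lower (background 13.7%, 4.74% higher and 8.94% lower). At 1 h the count was 0 or 1 without any WT 0 h library, WT 1 h replicate 1, or any hy5 pif457 library at 0 h or 1 h. At 8 h it was 19 or 20 without WT 0 h replicate 1 or 3, 25 or 17 without WT 8 h replicate 1 or 3, 28 or 19 without hy5 pif457 0 h replicate 2 or 3, and 17 or 20 without hy5 pif457 8 h replicate 1 or 3. All responses within a genotype share its 0 h libraries, and all differences from WT share the WT libraries.

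In white light, 20 of the 246 differed between hy5 and WT (9 higher, 11 lower, with a background of 9.49%, 6.35% higher and 3.14% lower), 1 between pif457 and WT (background 0.0835%) and 12 between hy5 pif457 and WT (5 higher, 7 lower, with a background of 8.94%, 5.87% higher and 3.07% lower). The hy5 count was 5 or 6 without WT 0 h replicate 1 or 3 and 9 without hy5 0 h replicate 1. The pif457 count was 3 without WT 0 h replicate 2. The hy5 pif457 count was 7, 24 or 7 without WT 0 h replicate 1, 2 or 3 and 6 without hy5 pif457 0 h replicate 3. Between hy5 pif457 and hy5, 5 were called against a background of 0.677%, and 2, 3, 3, 3 or 1 without hy5 0 h replicate 1 or 2 or hy5 pif457 0 h replicate 1, 2 or 3.

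**Figure D1:**
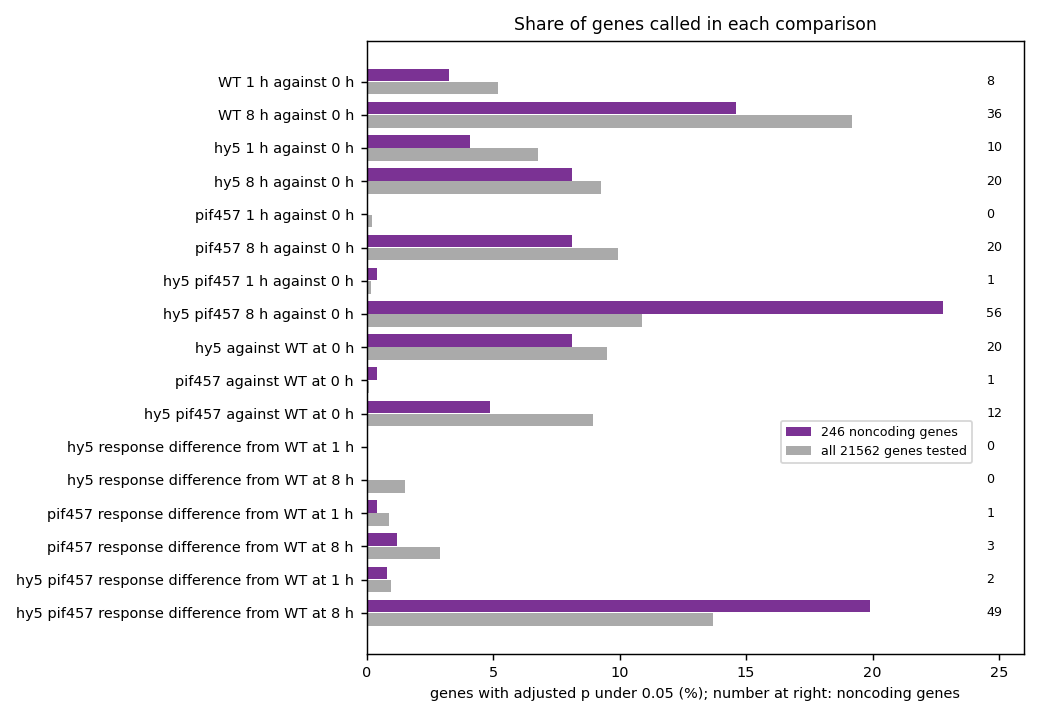
Share of the 246 noncoding genes (purple) and of all 21562 genes tested (grey) with an adjusted p under 0.05 in each comparison, in percent, with the number of noncoding genes at the right. The noncoding bar is longer than the grey bar by the most in hy5 pif457 at 8 h, where 56 genes (22.8%) were called against 10.9% of all genes.

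AT5G02865, between the SAUR genes, rose in WT within 1 h and was lower again at 8 h. At 0 h the WT libraries held 3, 2 and 3 counts, at 1 h 280, 237 and 224, and at 8 h 54, 37 and 35. On the scaled level these were 0.08, 0.05 and 0.09 CPM at 0 h, 8.23, 6.45 and 5.29 at 1 h, and 1.31, 1.09 and 0.82 at 8 h. The 3 times did not overlap. By the pooled counts, scaled for library size, the 1 h level was 89.7 times the 0 h level, with an exact 95% interval of 45.3 to 209 that covers counting error only. The fitted log2 change in WT was 6.45 ± 0.68 (adjusted p = 1.05e-07) at 1 h and 3.82 ± 0.68 (adjusted p = 0.00023) at 8 h, and from 1 h to 8 h it fell by 2.63 (adjusted p = 0.000934).

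In hy5, AT5G02865 followed the same course. Its levels were 0.05, 0.08 and 0.25 CPM at 0 h, 5.96, 5.88 and 11.3 at 1 h, and 0.97, 2.44 and 0.82 at 8 h. Every hy5 library at 1 h was above every hy5 library at 8 h, and those were all above 0 h. The 1 h level was 57.3 times the 0 h level (95% counting interval 35.1 to 101), with a fitted log2 change of 5.88 ± 0.63 (adjusted p = 1.63e-07). The hy5 response differed from the WT response by -0.56 ± 0.93 on the log2 scale at 1 h, with an adjusted p of 0.863. AT5G02865 reached a mean of 2 CPM only in WT and hy5 at 1 h, and either group alone would have put it among the 246. It thus entered through the groups in which it was high. It was also singled out after its values were seen, so its tests describe a gene picked with this pattern known.

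In the pif457 and hy5 pif457 lines, AT5G02865 stayed near its lowest level at all times. The pif457 libraries read 0 to 0.21 CPM and the hy5 pif457 libraries 0 to 0.25 CPM, with 0 to 11 counts each. The pooled counts in pif457 were 9 at 0 h and 13 at 1 h, a ratio of 1.15 with a 95% counting interval of 0.455 to 3.05. In hy5 pif457 they were 6 and 13, a ratio of 1.81 with an interval of 0.641 to 5.80. The response at 1 h was 6.32 ± 1.19 log2 units smaller in pif457 than in WT (log2 difference -6.32, adjusted p = 0.00255), and without pif457 0 h replicate 1, which held most of that group's counts, the adjusted p was 0.337. For hy5 pif457 the log2 difference was -5.62 ± 1.33 (adjusted p = 0.0293), with an adjusted p of 0.562 without hy5 pif457 0 h replicate 2 and between 0.0531 and 0.137 without any of 7 other libraries.

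The neighbouring SAUR genes, which encode small proteins that promote cell expansion, also rose in WT and hy5. AT5G02865 was not called in hy5 pif457. Its pooled counts there were 6 at 0 h and 16 at 8 h, a ratio of 2.39 with a 95% counting interval of 0.889 to 7.46. SAUR22 rose by 2.55 log2 units in hy5 pif457 at 8 h (adjusted p = 1.09e-05), and the difference between these genes was not tested. SAUR20 averaged 2.15, 23.2 and 16.5 CPM in WT at 0, 1 and 8 h, and 2.17, 3.22 and 3.98 in pif457. SAUR21 averaged 2.26, 39.4 and 19.7 in WT and 2.22, 3.39 and 3.99 in pif457. For SAUR22 the means were 0.669, 19.6 and 21.1 in WT and 0.449, 1.35 and 2.46 in pif457. From 1 h to 8 h in WT, SAUR20 changed by -0.49 on the log2 scale (adjusted p = 0.14), SAUR21 fell by 1.01 (adjusted p = 0.00676) and SAUR22 changed by 0.10 (adjusted p = 0.842), beside the fall of 2.63 for AT5G02865. Differences between these genes in that change were not tested. The same 300-base window held CACATG on either strand in SAUR19, SAUR21 and SAUR22 and not in SAUR20, SAUR23 or SAUR24.

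**Figure D2:**
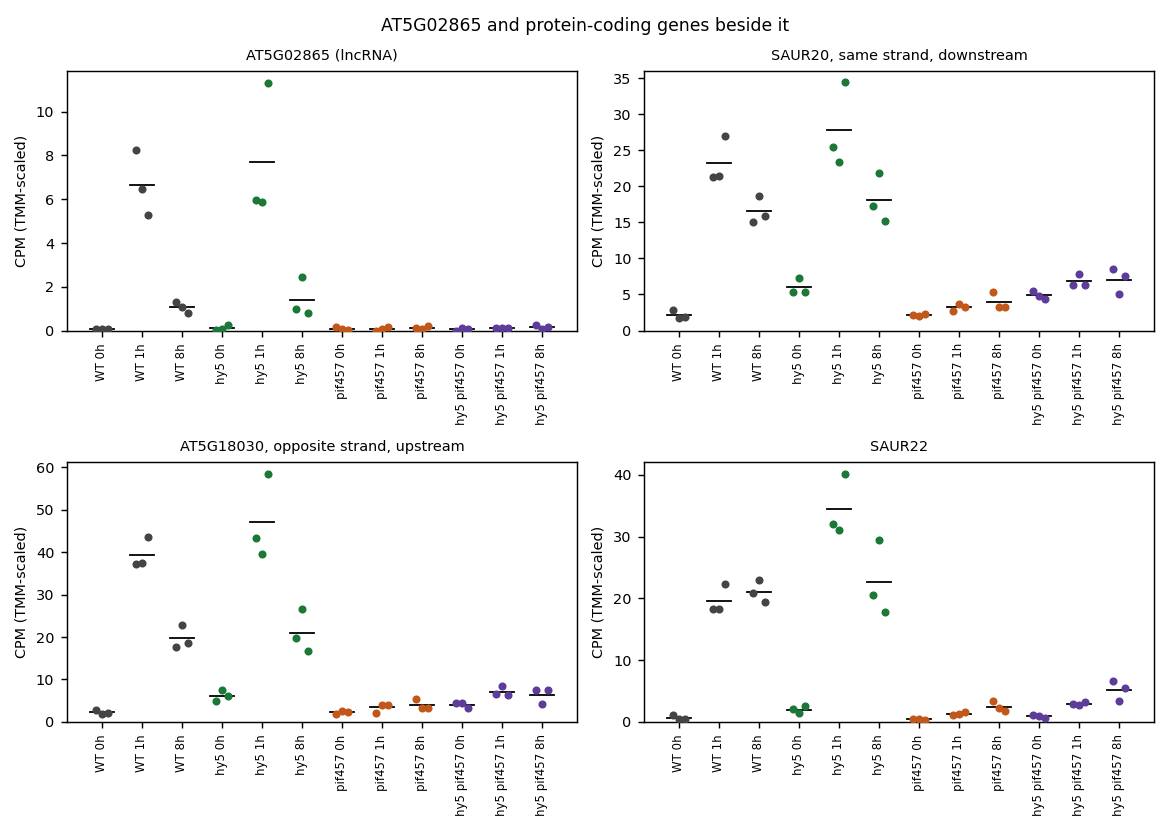
Level of AT5G02865 and of SAUR genes beside it in each library (points; bars are means of 3 libraries), as TMM-scaled CPM on a linear axis from 0, by genotype and hours of W+FR. AT5G02865 is above 5 CPM in the 6 WT and hy5 libraries at 1 h and at most 0.25 CPM in all pif457 and hy5 pif457 libraries.

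AT1G23052 (chr1:8168443-8169267, minus strand), an ncRNA of 825 bases that lies wholly opposite exons of the hydroxyproline-rich glycoprotein family gene AT1G23050, rose only late. In WT it read 1.58, 1.60 and 1.12 CPM at 0 h, 1.62, 2.20 and 1.44 at 1 h, and 7.91, 9.99 and 7.14 at 8 h. In hy5 it read 2.80, 3.58 and 1.5 at 0 h and 8.78, 10.4 and 7.03 at 8 h. All 8 h libraries of these genotypes were above all their 0 h and 1 h libraries. The log2 change at 8 h was 2.54 ± 0.27 in WT (adjusted p = 1.21e-07) and 1.74 ± 0.26 in hy5 (adjusted p = 4.13e-05).

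In the pif457 and hy5 pif457 lines the response of AT1G23052 at 8 h was smaller than in WT. The pif457 libraries read 1.90, 2.06 and 1.66 CPM at 0 h and 1.49, 1.41 and 2.61 at 8 h, which overlap. In hy5 pif457 the values were 2.20, 2.13 and 2.27 at 0 h and 4.05, 3.92 and 4.11 at 8 h, a log2 change of 0.87 ± 0.26 (adjusted p = 0.0346) whose adjusted p was 0.0575 to 0.0767 without any of 5 of the 6 libraries. The response at 8 h was smaller than in WT by 2.57 log2 units in pif457 (log2 difference -2.57 ± 0.38, adjusted p = 0.000288) and by 1.67 in hy5 pif457 (log2 difference -1.67 ± 0.37, adjusted p = 0.00456). The coding partner AT1G23050 averaged 0.98, 1.07 and 2.23 CPM in WT and rose by 1.18 ± 0.25 at 8 h (adjusted p = 0.00141), and AT1G23052 had 219% of its counts over all libraries.

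AT1G69572 (chr1:26161551-26162791, plus strand) covers the Dof-type zinc finger gene AT1G69570 on the opposite strand, a family of plant transcription factors. In hy5 it read 1.78, 1.76 and 1.29 CPM at 0 h, 2.07, 2.30 and 1.25 at 1 h, and 4.72, 1.90 and 4.38 at 8 h. The hy5 8 h libraries were all above the 0 h libraries, with a log2 change of 1.19 ± 0.26 (adjusted p = 0.00332). In WT it read 1.38, 1.98 and 1.53 at 0 h and 2.18, 3.42 and 2.96 at 8 h, a log2 change of 0.80 ± 0.26 (adjusted p = 0.031) that was lost, with an adjusted p of 0.0947 to 0.143, without any of WT 0 h replicates 1 and 3 and WT 8 h replicates 2 and 3. The partner AT1G69570 averaged 3.41, 11.0 and 19.8 CPM in WT and 10.8, 36.4 and 23.7 in hy5, so in both genotypes the partner was already higher at 1 h while AT1G69572 was not called there.

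AT4G37553 (chr4:17646613-17650067, minus strand), a lncRNA with 5 exon blocks, 41.9% of it opposite the acetamidase/formamidase family gene AT4G37560, was high in hy5 alone among the genotypes. At 0 h it read 1.3, 0.85 and 1.27 CPM in WT and 4.33, 5.02 and 3.65 in hy5. In hy5 it stayed between 3.29 and 6.34 CPM at all times, while the pif457 libraries read 0.94 to 1.88 and the hy5 pif457 libraries 0.82 to 1.75. The WT libraries read 1.2 to 1.47 CPM at 1 h and 1.19 to 1.74 at 8 h. The hy5 and WT libraries at 0 h did not overlap, with a log2 difference of 1.92 ± 0.25 (adjusted p = 1.14e-05), and hy5 pif457 was lower than hy5 by 1.82 log2 units (log2 difference -1.82 ± 0.25, adjusted p = 4.21e-05). AT4G37553 reached a mean of 2 CPM in the hy5 groups alone, at 1 h and 8 h as well as 0 h. It thus entered through the groups in which it was high, which can raise these differences and the lack of overlap. AT4G37560 was also highest in hy5, with 0 h means of 58.7 CPM in hy5, 23.0 in WT, 17.7 in pif457 and 21.7 with all 4 genes mutated, and AT4G37553 had 8.11% of its counts.

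Some abundant antisense genes had a small fraction of the counts of a very highly expressed partner and had levels that followed it across the groups. AT2G08665 (chr2:14522522-14523568, plus strand) lies opposite LHB1B2, which encodes a chlorophyll a/b-binding antenna protein. It read 124, 90.8 and 120 CPM in WT at 0 h, 66.3, 97.9 and 66.5 at 1 h, and 203, 251 and 190 at 8 h, and the 8 h libraries were above all others. It rose by 0.94 ± 0.24 log2 units at 8 h (adjusted p = 0.0059). LHB1B2 averaged 6950, 5990 and 16700 CPM in the same groups, the noncoding gene had 1.33% of its counts, and over the 12 group means their log2 levels correlated at r = 0.94, a description of groups that share libraries. AT2G08665 also shared 17.2% of its 50-base words with other annotated genes that do not overlap it, so its counts are uncertain.

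AT3G22121 (chr3:7794956-7796327, plus strand), wholly opposite the cell wall linker protein gene CWLP, had 3.71% of its partner's counts, and r over the 12 group means was 0.91. In hy5 it read 103, 101 and 79.9 CPM at 0 h, 72.2, 78.8 and 46.1 at 1 h, and 153, 101 and 177 at 8 h, and it rose from 1 h to 8 h by 1.13 ± 0.19 log2 units (adjusted p = 0.000205). CWLP averaged 2560, 1810 and 3580 CPM in these groups.

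Over all 159 pairs, the correlation of the 12 group means between a noncoding gene and its partner had a median of 0.06 and ran from -0.86 to 0.94, with 36 pairs at 0.5 or above and 13 at -0.5 or below. Among the 18 pairs in which the noncoding gene had under 5% of the partner's counts, the median was 0.58 and 11 were at 0.5 or above. The share of these counts that came from the partner's strand was not tested.

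Both AT3G63445 and AT2G45315 rose in hy5 at 1 h, and for neither was a difference from the WT response called. The highest group mean of AT3G63445 was in WT at 1 h (16.6 CPM). AT2G45315 averaged 6.32 CPM in WT at 0 h and 7.61 at 1 h. AT3G63445 (chr3:23422590-23426390, minus strand) overlaps CKX6, which encodes a cytokinin-degrading oxidase, over 49.6% of its exons. In hy5 it read 9.36, 10.9 and 10.1 CPM at 0 h and 15.2, 16.6 and 16.0 at 1 h without overlap, a rise of 0.66 ± 0.12 log2 units (adjusted p = 0.000632). CKX6 averaged 8.89 and 32.3 CPM in hy5 at 0 h and 1 h, and 6.95 and 32.1 in WT. AT2G45315 (chr2:18682089-18684072, minus strand), opposite the nucleotide-sugar epimerase gene GAE4, read 5.38, 5.61 and 5.01 CPM in hy5 at 0 h and 8.20, 8.89 and 8.47 at 1 h. These did not overlap, and the rise was 0.68 ± 0.11 (adjusted p = 9.74e-05). In hy5 pif457, AT2G45315 read 5.74, 5.68 and 5.40 at 0 h and 7.99, 7.80 and 8.47 at 1 h, a rise of 0.53 ± 0.11 (adjusted p = 0.0333), and without each library in turn the adjusted p was 0.0852 to 0.214.

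AT2G36792 (chr2:15420065-15422088, plus strand), opposite the flavonol glucosyltransferase gene UGT73C6, was lower at 1 h in hy5. It read 6.47, 8.15 and 4.19 CPM at 0 h and 2.57, 3.06 and 1.31 at 1 h, and it fell by 1.42 log2 units (adjusted p = 0.0196), with an adjusted p of 0.054 to 0.0907 without any of hy5 0 h replicates 1 and 2 and hy5 1 h replicates 1 and 3. UGT73C6 averaged 3.60 CPM at 0 h and 0.947 at 1 h in hy5 and had fewer counts than AT2G36792. In WT, AT2G36792 averaged 9.19 CPM at 0 h and 4.41 at 1 h, with overlapping libraries, and UGT73C6 5.04 and 2.03. No difference between the hy5 and WT responses of AT2G36792 was called.

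**Figure D3:**
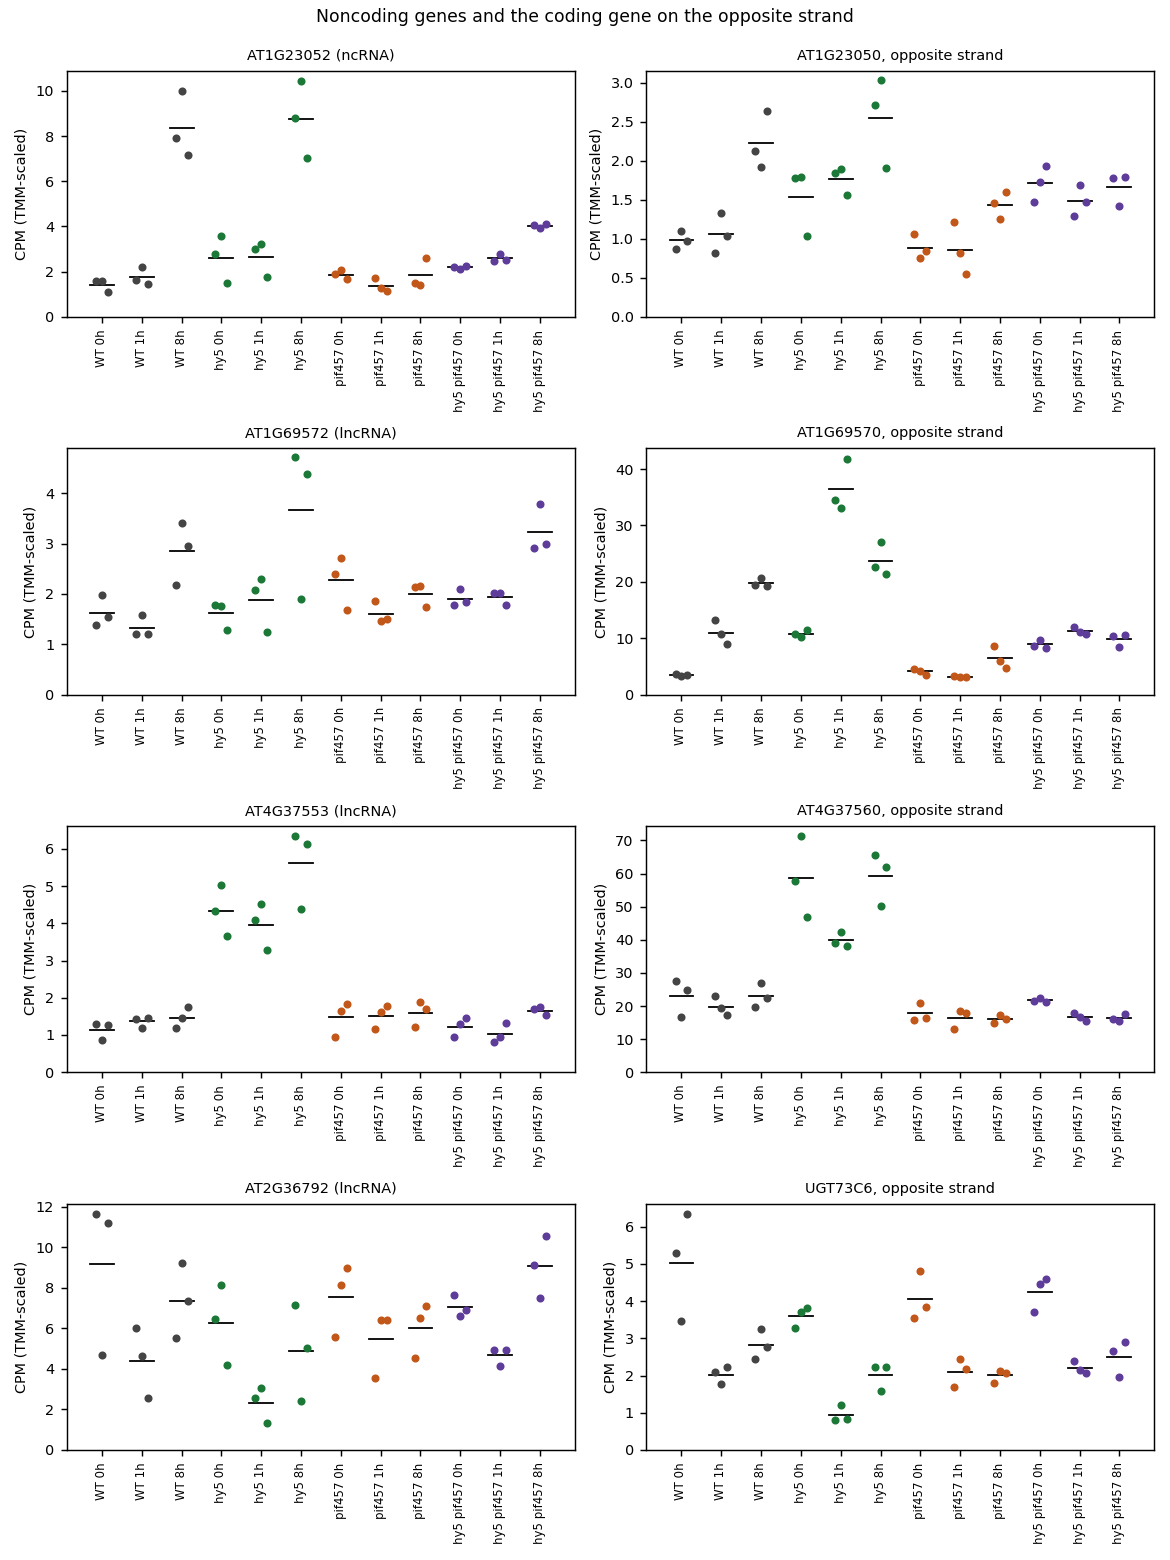
Levels of antisense noncoding genes and of the coding gene on the opposite strand, as TMM-scaled CPM on linear axes from 0, by genotype and hours of W+FR (points are libraries, bars means of 3). AT1G23052 is highest in WT and hy5 at 8 h (7.03 to 10.4 CPM), and AT4G37553 in hy5 at all times (3.29 to 6.34 CPM).

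AT4G04223 (chr4:2036511-2037816, plus strand), singled out after its values were seen, separated WT from all mutants. It read 4.07, 4.04 and 4.78 CPM in WT at 0 h, 3.76, 4.46 and 3.95 at 1 h, and 3.48, 3.89 and 1.74 at 8 h. The hy5 libraries read 0.70, 0.80 and 1.09 at 0 h and at most 1.18 later, the pif457 libraries 0.24 to 0.50, and the hy5 pif457 libraries 0.63, 0.68 and 0.28 at 0 h and at most 1.18 later. No mutant library reached the lowest WT library. Against WT at 0 h the log2 difference was -2.31 ± 0.29 in hy5 (adjusted p = 5.58e-06) and -3.25 ± 0.31 in pif457 (adjusted p = 1.06e-07). For hy5 pif457 it was -3.03 ± 0.31 (adjusted p = 3.6e-07), and the calls held without each library in turn. It entered the 246 through the WT groups alone, at 1 h and 8 h as well as 0 h. AT4G04223 shared 71.5% of its 50-base words with the coding gene AT3G56210, so its counts are uncertain. AT3G56210 was also highest in the WT groups, with means of 20.4, 21.6 and 18.6 CPM at 0, 1 and 8 h, next to 15.2 to 17.5 in the 9 mutant groups. At 0 h its log2 difference from WT was -0.34 for hy5 (adjusted p = 0.0202), -0.29 for pif457 (adjusted p = 0.491) and -0.27 for the quadruple mutant (adjusted p = 0.0689), and the part of these shared reads in the values of AT4G04223 was not tested.

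AT2G26355 (chr2:11220708-11221535, plus strand) read 5.47, 5.47 and 5.46 CPM in WT at 0 h and 2.32, 2.40 and 1.99 in hy5, without overlap. It was lower in hy5 by 1.29 log2 units (log2 difference -1.29 ± 0.26, adjusted p = 0.00207). At 1 h the WT libraries read 3.76 to 4.73 CPM and the hy5 libraries 2.70 to 4.04, which overlap. AT2G08650 (chr2:14393410-14394346, plus strand), also singled out after its values were seen, read 3.39, 3.79 and 2.66 CPM in WT and 0.65, 0.75 and 0.97 in hy5 at 0 h, a log2 difference of -2.05 ± 0.38 (adjusted p = 0.00108). In hy5 pif457 it read 1.65, 3.14 and 3.01, above hy5 by 1.71 ± 0.38 (adjusted p = 0.0235), a call lost without hy5 0 h replicate 1 (adjusted p = 0.124), hy5 0 h replicate 2 (0.0819) or hy5 pif457 0 h replicate 2 (0.108) or 3 (0.169).

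Neither miRNA gene was called in any comparison. MIR163, whose mature miRNA printed above targets mRNAs of methyltransferases such as PXMT1, read 2.42, 2.69 and 1.77 CPM in WT at 0 h and 1.09, 1.1 and 1.31 in hy5. These libraries did not overlap, with a log2 difference of -0.97 ± 0.34 and an adjusted p of 0.0704. In hy5 pif457 it read 0.84, 0.98 and 1.57 at 0 h, a log2 difference from WT of -1.02 (adjusted p = 0.065). The pif457 libraries read 2.38, 1.52 and 1.92 at 0 h. WT at 0 h was the group with the highest mean of MIR163, 2.387 CPM before TMM scaling. Genes were chosen by their highest group mean, which can raise these differences from WT and the lack of overlap with hy5. PXMT1 averaged 0.835 CPM in WT and 1.3 in hy5 at 0 h, where the lone hy5 replicate 3 read 2.95 and the others 0.43 and 0.53.

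MIR2936, the other miRNA gene, lies with all of its 180 bases in an exon of SAG21 on the same strand, so its reads and those of SAG21 cannot be told apart. It read 0.71, 0.99 and 0.56 CPM in WT at 0 h, 1.37, 0.45 and 10.7 in hy5, and 3.92, 2.03 and 6.69 in hy5 pif457. The hy5 libraries were spread over the whole range of WT and above, and the log2 difference of 2.47 ± 0.88 had an adjusted p of 0.0728. SAG21 read 50.1, 44.2 and 209 CPM in the same hy5 libraries, also highest in replicate 3. Of the miRNA genes that did not reach the level, MIR834 was highest at 1.35 CPM before TMM scaling in hy5 pif457 at 8 h.

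TAS3, whose siRNAs target auxin response factor mRNAs, fell late in WT. It read 13.0, 11.3 and 12.2 CPM at 0 h, 11.1, 10.04 and 10.6 at 1 h, and 7.81, 8.25 and 7.50 at 8 h, and the 8 h libraries were below all others. The change at 8 h was -0.63 ± 0.15 (adjusted p = 0.0044), and it held without each library in turn. At 8 h the log2 change was -0.43 in hy5 (adjusted p = 0.0776), -0.40 in pif457 (adjusted p = 0.0886) and, for hy5 pif457, -0.06, and no difference from WT was called.

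Among the WT libraries, the 4 genes with a miR173 site were all highest in the same one, WT at 1 h replicate 1. Over all 36 libraries this held for TAS1B, TAS1C and TAS2, while TAS1A reached 9.38 CPM in a hy5 pif457 library at 8 h. TAS2 read 10.2, 4.00 and 3.95 CPM in WT at 1 h, TAS1A 9.23, 5.85 and 6.05, TAS1B 6.23, 3.51 and 2.95, and TAS1C 4.44, 2.29 and 2.53. The other WT libraries read 2.37 to 4.59 for TAS2 and 4.65 to 7.08 for TAS1A at 0 h and 8 h. From 1 h to 8 h in WT, TAS1B fell by 0.69 (adjusted p = 0.0285), TAS1C by 0.67 (adjusted p = 0.0294) and TAS2 by 0.90 (adjusted p = 0.0381). Without WT 1 h replicate 1 the adjusted p was 0.354, 0.326 and 0.512, and without WT 8 h replicate 1 or 3 it was between 0.0994 and 0.185, so these 3 calls rest on single libraries.

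GUT15, a lncRNA known for its unstable transcript, was called in no comparison and read 60.3 to 121 CPM in all libraries. U3D, a small nucleolar RNA of the kind that guides early cuts of the pre-rRNA, read 4.41, 3.63 and 4.81 CPM in WT at 0 h and 1.5, 2.27 and 2.12 in hy5 pif457, without overlap (log2 difference -1.12, adjusted p = 0.00669). In pif457 it read 2.97, 3.84 and 3.75 at 0 h and 1.60, 1.90 and 1.03 at 8 h, and it fell by 1.22 log2 units (adjusted p = 0.0039), with an adjusted p of 0.0501 without pif457 8 h replicate 3. U2.11, a spliceosomal small nuclear RNA, read 3.83, 3.71 and 2.5 in pif457 at 0 h and 1.72, 1.33 and 1.24 at 8 h, and it fell by 1.23 (adjusted p = 0.0338), with an adjusted p of 0.0614 to 0.167 without pif457 0 h replicate 1 or 2 or pif457 8 h replicate 2 or 3. When only pif457 at 0 h and 8 h was fitted, 0 noncoding genes were called. The falls of U3D and U2.11 in pif457 were thus both lost in that fit. The mean share of rRNA counts in these groups was 0.966% in pif457 at 0 h, 10.4% in pif457 at 8 h, 0.937% in WT at 0 h and 8.69% in hy5 pif457 at 0 h, and its part in these differences was not tested.

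AT3G06355 in the ribosomal DNA repeat read 98.0, 74.6 and 111 CPM in WT at 0 h, 66.5, 93.3 and 70.4 in hy5, and 154, 138 and 143 in hy5 pif457. The hy5 pif457 libraries were above both other groups, by 0.92 log2 units over hy5 (adjusted p = 0.0132) and 0.62 ± 0.19 over WT (adjusted p = 0.041), the latter lost without each library in turn. The difference from hy5 had an adjusted p of 0.0929 or 0.0582 without hy5 0 h replicate 1 or 3 and 0.0649 or 0.0754 without hy5 pif457 0 h replicate 1 or 3. The rRNA gene AT3G41768 averaged 5130 CPM in WT and 71700 in hy5 pif457 at 0 h, and the part of rRNA reads in the level of AT3G06355 was not tested. AT4G13495, the second highest gene per kilobase, read 129, 186 and 130 CPM in hy5 at 0 h, 138, 134 and 175 at 1 h, and 74.96, 106 and 64.5 at 8 h. It fell by 0.85 log2 units at 8 h in hy5 (adjusted p = 0.00822), with an adjusted p of 0.0816, 0.0527 or 0.0582 without hy5 0 h replicate 2 or hy5 8 h replicate 1 or 3. When only hy5 at 0 h and 8 h was fitted, 1 noncoding gene was called higher and 0 lower, so this fall was lost.

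**Figure D4:**
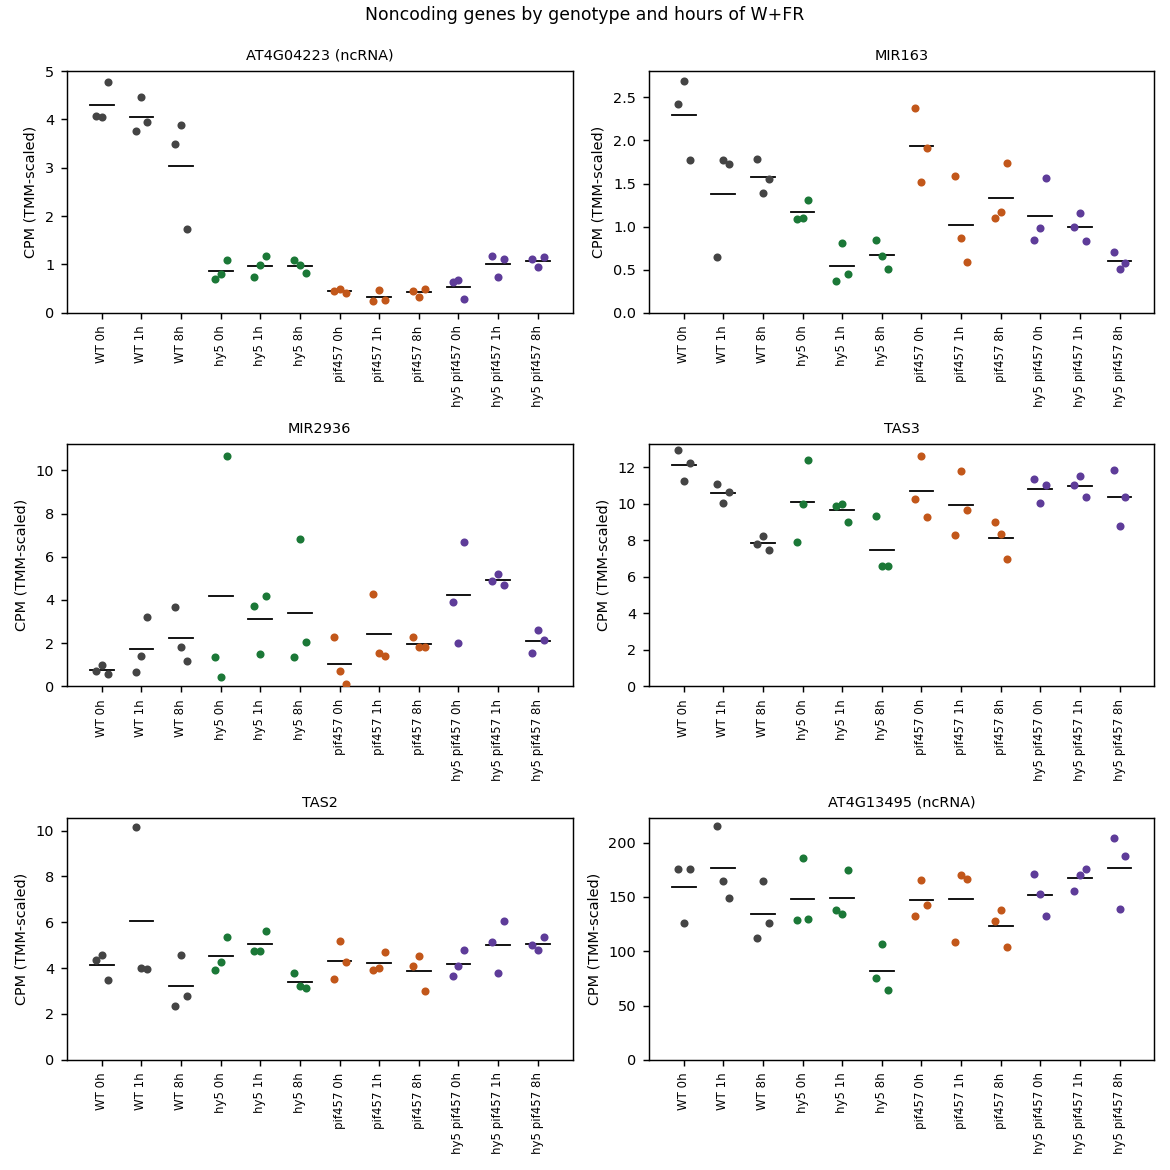
Levels of AT4G04223, MIR163, MIR2936, TAS3, TAS2 and AT4G13495, as TMM-scaled CPM on linear axes from 0, by genotype and hours of W+FR (points are libraries, bars means of 3). TAS3 is lowest among WT groups at 8 h (7.50 to 8.25 CPM), and TAS2 has 1 WT library at 1 h (10.2 CPM) far above the others.

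Of the 68 genes with no coding overlap, nontranslating_CDS genes left aside, 1 rose and 10 fell in WT at 8 h, where 12% of all genes tested rose and 7.11% fell. Their median log2 change was -0.32, next to -0.03 over all genes tested. AT3G12965 (chr3:4136961-4137674, minus strand) read 37.4, 22.2 and 33.1 CPM at 0 h, 17.2, 19.9 and 16.3 at 1 h, and 18.1, 19.6 and 17.1 at 8 h. AT1G79075 (chr1:29745939-29746842, plus strand) read 13.9, 10.5 and 12.3 at 0 h, 6.43, 7.54 and 7.99 at 1 h, and 7.64, 8.40 and 6.08 at 8 h. In both genes the 0 h libraries stood above all later ones, and the log2 changes at 1 h were -0.79 (adjusted p = 0.0101) and -0.74 (adjusted p = 0.0044). The call for AT3G12965 had an adjusted p of 0.113 without WT 0 h replicate 1 and 0.0588 without replicate 3. When only WT at 0 h and 1 h was fitted, 1 noncoding gene was called higher and 0 lower. Neither fall at 1 h was thus called in that fit. AT5G53048, a lncRNA that overlaps the coding gene AT5G53050 on the opposite strand over 48.5% of its exon bases, fell by 2.14 log2 units at 8 h (adjusted p = 0.0181) from 12.3, 4.59 and 6.44 CPM to 2.78, 1.15 and 1.32. Its adjusted p was 0.121 when the first of these 0 h libraries was left out, and 0.0734 or 0.0874 when replicate 2 or 3 at 8 h was.

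Among the 17 nontranslating_CDS genes, 4 rose and 2 fell in WT at 8 h. AT4G16150, which RefSeq names calmodulin-binding transcription activator 5, had the largest log2 change of these 6. In WT it read 43.0, 56.9 and 44.8 CPM at 0 h, 56.7, 64.0 and 74.5 at 1 h, and 83.9, 79.4 and 81.4 at 8 h, and the 8 h libraries were above all others. It rose at 8 h by 0.76 ± 0.13 in WT (adjusted p = 8.67e-05) and by 0.63 in hy5 (adjusted p = 0.00117). In WT at 8 h, MKP1, a phosphatase that inactivates MAP kinases, rose by 0.30 (adjusted p = 0.0081), and so did RR2, a response regulator of cytokinin signalling, by 0.31 (adjusted p = 0.0175), and ELF8, a subunit of the Paf1 transcription elongation complex, by 0.29 (adjusted p = 0.00508). The 2 that fell were AT4G16360, by 0.31 (adjusted p = 0.00625), and AT5G26800, by 0.35 (adjusted p = 0.0399), which was named after its values were seen, as was AT4G16360.

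The 246 genes stood highest as a group in hy5 pif457 at 8 h. Against each gene's own mean over the 12 groups, on the log2(level + 0.5) scale, the median was 0.27 there (quartiles 0.13 and 0.38), while the other 11 groups had medians between -0.10 and 0.05. The 3 libraries had medians of 0.30, 0.11 and 0.34, and the other 33 libraries ran from -0.20 to 0.12, so replicate 2 overlapped the others. For 17084 protein-coding genes the group medians lay between -0.037 and -0.004. Those genes were chosen by their mean over the 12 groups, whereas the 246 were chosen by their highest group mean. Genes that entered the 246 through hy5 pif457 at 8 h can therefore raise the median there. The 246 together took 0.315% ± 0.031 (SD, n = 3) of all counts in hy5 pif457 at 8 h and averaged 0.230% to 0.264% in the other groups.

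By class, the median log2 change in hy5 pif457 at 8 h was 0.40 over the 160 antisense genes, of which 46 rose and 2 fell, and -0.17 over their coding partners. Of all genes tested, 4.73% rose and 6.2% fell. It was 0.28 over the 68 without coding overlap, of which 6 rose and 1 fell, and 0.04 over the 17 nontranslating_CDS genes, of which 0 rose and 1 fell. Of the 48 antisense genes called, 1 partner was called in the same direction, 1 in the opposite direction, 35 were not called and 11 were not tested. Leaving out the genes that reached the level in the compared groups alone left 236 genes, of which 51 rose and 4 fell, with a median of 0.36. With other scalings, 66 rose and 4 fell under DESeq2's median-ratio factors, and 69 rose and 4 fell with rRNA and organelle genes left out of the totals.

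AT4G38545 (chr4:18022932-18025298, minus strand), opposite AT4G38540, shows this course. It read 7.11, 7.00 and 6.23 CPM in hy5 pif457 at 0 h, 9.36, 8.98 and 8.08 at 1 h, and 13.3, 10.8 and 13.1 at 8 h, and the 3 times did not overlap. It rose by 0.87 ± 0.17 at 8 h (adjusted p = 0.0022), and the response was 0.70 ± 0.24 log2 units above that of WT (adjusted p = 0.0493), where the libraries read 6.60 to 7.87 at 0 h and 7.10 to 9.31 at 8 h. AT1G06002 (chr1:1820254-1821887, plus strand), opposite AT1G06000, read 5.29, 6.46 and 5.43 CPM at 0 h and 12.1, 8.81 and 11.6 at 8 h. It rose by 0.92 ± 0.21 (adjusted p = 0.00645), and the response was 1.33 ± 0.29 above that of WT (adjusted p = 0.00379), while AT1G06000 changed by -0.38 (adjusted p = 0.274).

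Library measures also differed in that group. Before TMM scaling, the summed root markers ran from 1298 to 1418 CPM over the 3 libraries of hy5 pif457 at 8 h and from 2066 to 2977 at 0 h. WT also ran lower at 8 h (1224 ± 517) than at 1 h (2339 ± 1002). Most of the sum was PYK10, which averaged 1254 CPM in hy5 pif457 at 8 h and 2283 at 0 h. Most other root markers were also lower there at 8 h than at 0 h. SHR (21.7 against 19.1 CPM) and WOX5 (0.585 against 0.287) were higher. The rRNA share was 8.54% at 8 h and 8.69% at 0 h. The 4253 noncoding genes below the level summed to 168 ± 13 CPM at 8 h and 147 ± 7 at 0 h in hy5 pif457, and to 133 to 176 CPM over all groups. The part of these measures in the rise was not tested.

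**Figure D5:**
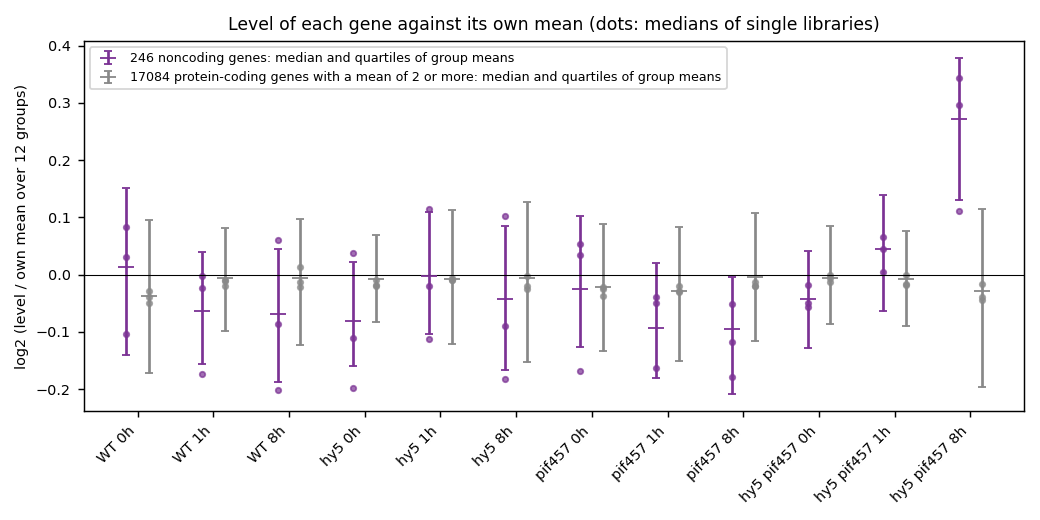
Median and quartiles, over 246 noncoding genes and 17084 protein-coding genes, of the log2 ratio of a gene's group mean to its own mean over the 12 groups; dots are the medians of single libraries. The noncoding median is 0.27 in hy5 pif457 at 8 h and between -0.10 and 0.05 in the other groups. The noncoding genes were chosen by their highest group mean and the protein-coding genes by their mean over the 12 groups.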

How the data were processed

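Libraries were made with a stranded mRNA-seq kit from 36 whole-seedling samples. Per the submitters' processing notes, reads were mapped and quantified with STAR 2.5.3a and RSEM 1.3.0 on TAIR10. No source used here states the annotation release or the strand setting. The authors deposited expected counts per gene, which RSEM estimates and which need not be whole, and these were rounded to whole numbers. Library totals of 30846115 to 58025421 counts set the precision, and intervals on counts cover counting error only.

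Gene types came from the deposited table; 32548 of 32833 gene IDs matched RefSeq's TAIR10.1 annotation, which gave positions, symbols and sequences. Counts were tested with edgeR 4.0.16 (quasi-likelihood, TMM scaling, minimum count of 10 in the low-count filter) in R 4.3.3 with limma 3.58.1, in 1 fit over all 12 groups without a replicate block, with Benjamini-Hochberg adjustment over 21562 genes. DESeq2 1.42.0 was an alternative, as were other scalings, no filter, the replicate block, fits on fewer libraries and each library left out. The test was checked on simulated data. CPM in the text is TMM-scaled, except for the level of 2 CPM that chose the genes and values set against it, levels per kilobase, summed root markers with their single markers, and MIR834.

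Genes are named if they belong to a list of 20 well-studied noncoding RNAs or are miRNA or TAS genes, if among the 10 highest in mean CPM, if among the 4 highest and 4 lowest called fold changes of a comparison with a mean of at least 2 CPM and no overlap, or if just inside or outside the level; their coding partners are named too. AT5G02865, AT4G04223, AT2G08650, AT4G16360, AT5G26800, AT3G27884, AT1G07367, AT1G10682, AT1G25175 and RLK1 fall outside this rule and were singled out after their values were seen. The genes and lists were chosen with earlier results of these data known.

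Replicates of a group differed by more than sampling noise (chi-square per degree of freedom at least 4.03), so all were kept. Deviations of same-numbered libraries from their group means correlated above 0.1 in every pair only for hy5 at 1 h and 0 h (0.316, 0.313 and 0.414) and pif457 at 1 h and 0 h (0.68, 0.567 and 0.241), where the numbers were taken to pair the samples.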

Additional observations from a re-analysis of the deposited data

Results flagged for a closer look

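Each gene here was called by edgeR's quasi-likelihood test (adjusted p under 0.05 over all genes) for a difference between the W+FR response of a mutant and that of WT, and values are log2 differences in response. In pif457, AT5G02865 differed by -6.32 at 1 h, and AT1G23052 by -2.57 and AT4G26542 by -0.88 at 8 h. In hy5 pif457 at 1 h, AT5G02865 differed by -5.62 and AT1G79075 by 0.91.

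In hy5 pif457 at 8 h, 16 of the 20 genes flagged responded more positively than in WT. These 20 are the named genes among 49 called, so their split depends on the naming rule, which takes the 4 highest and 4 lowest changes. Of the 49, 45 were higher and 4 lower, against a background of 4.74% higher and 8.94% lower. AT4G04223 differed by 1.52, AT1G06002 by 1.33, AT2G45245 by 1.29, U3D by 1.25, AT2G13665 by 1.17 and AT4G12917 by 1.16. AT1G09927 differed by 0.99, AT1G58590 by 0.93, AT1G79075 by 0.91, AT3G12965 by 0.91, AT4G04435 by 0.88 and AT5G01215 by 0.81. AT4G38545 and TAS1A each differed by 0.70, AT1G04183 by 0.62 and AT2G45315 by 0.50. Of the genes that responded less, AT1G23052 differed by -1.67, and the others were the nontranslating_CDS genes AT4G16150 at -0.66, RR2 at -0.60 and MKP1 at -0.44. All differences share the WT libraries, and their causes were not tested.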

How the results depend on the processing

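No result reversed, and of 105 calls of named genes 44 held without each library in turn and 33 of them under every alternative too. Counts of called genes that moved by over 1.5 times follow. Fitting only the groups compared gave 1 for WT 1 h, 21 for WT 8 h, 5 for hy5 1 h, 1 for hy5 8 h, 0 for pif457 8 h, 114 for hy5 pif457 8 h, 4 for hy5 against WT, 1 and 79 for the pif457 and hy5 pif457 differences from WT at 8 h, 4 and 2 for 8 h against 1 h in WT and hy5, and 2 for hy5 pif457 against hy5. Leaving out the 12 libraries rich in rRNA gave 3 for WT 1 h, 11 for hy5 against WT, and 8 and 6 for 8 h against 1 h in WT and hy5. DESeq2 gave 15 for WT 1 h, 16 for hy5 1 h, and 3 and 5 for the hy5 and pif457 differences at 8 h. No filter on low counts gave 0 for hy5 pif457 1 h. A level of 5 CPM left 139 genes. The causes were not tested.

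With the replicate block, hy5 pif457 1 h gave 0 calls and 8 h gave 53; no other count moved by over 1.5 times. In the pairs taken as matched, the block with only the groups compared gave 11 for hy5 1 h and 0 for pif457 1 h. Of the 7 calls of named genes in hy5 1 h, 5 held there, and those of AT5G66558 (adjusted p = 0.0717) and AT1G76878 (adjusted p = 0.159) did not.

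Leaving out each library in turn gave 2 to 19 for WT 1 h, 16 to 37 for WT 8 h, 5 to 10 for hy5 1 h, 9 to 18 for hy5 8 h, 0 for pif457 1 h, 4 to 35 for pif457 8 h, 0 for hy5 pif457 1 h and 18 to 71 for hy5 pif457 8 h. At 0 h it gave 5 to 29 for hy5, 1 to 3 for pif457 and 6 to 24 for hy5 pif457 against WT, and 1 to 6 for hy5 pif457 against hy5. For differences from WT it gave 0 and 0 to 2 for hy5 at 1 h and 8 h, 0 to 1 and 2 to 11 for pif457, and 0 to 2 and 17 to 70 for hy5 pif457. For 8 h against 1 h it gave 7 to 13 in WT and 4 to 14 in hy5. The genes chosen numbered 243 to 250.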
